A study of Mus musculus with 16 samples.

Results

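Ventricles were compared with atria of the same embryo in mouse hearts from which the homeobox genes Meis1 and Meis2 had been deleted in heart muscle (double knockout, dKO). Of the 16 libraries of the study, 8 belong to this comparison: the atrial and the ventricular library of each of 4 dKO embryos, chosen by the genotype and chamber in their labels. The other 8 libraries come from 4 control embryos and were used to show where the chamber difference itself differed between genotypes. Of 16118 genes listed, the 13950 with a mean of at least 1 CPM (counts scaled by a factor of each library) over all 16 libraries were tested. The 2168 below that level were not. Just below it lay A730017C20Rik, with 1.53 CPM in dKO atria and 0.606 CPM in dKO ventricles, and Gm4875, with 1.36 and 0.661 CPM. Just above it lay Gm45714, with 0.889 and 0.738 CPM, and Nim1k.

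All embryos were taken at E15.5 and were homozygous for floxed alleles of both genes (Meis1 flox/flox; Meis2 flox/flox). The dKO embryos carried in addition the aMHC transgene (aMHC tg/wt), in which the promoter of alpha-myosin heavy chain drives Cre recombinase, and the control embryos carried none (aMHC +/+). Presence of Cre and loss of the genes therefore cannot be told apart in these embryos. The promoter is active in heart muscle cells, so other cell types of the heart are not targeted by it, and each library holds the RNA of all cells of its chamber. The series describes a deletion that may be constitutive or inducible, and the labels do not settle which applies. The outflow tract was removed, and polyadenylated RNA was sequenced as single reads of 60 bases.

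Atrial and ventricular muscle use different myosin light chains, ion channels and regulators of calcium. In the embryo the ventricular program is known to rely on transcription factors such as Irx4 and Hey2, and the atrial program on the nuclear receptor Nr2f2 and on Tbx5. Meis1 and Meis2 are TALE homeobox proteins, which bind DNA together with Pbx partners and with tissue-specific factors. CPM are not corrected for gene length, so levels are compared between libraries and not between genes. A log2 difference is the mean of log2(CPM + 1) in ventricles minus that in atria, with its standard error, and is positive where the ventricle was higher. A gene was called at a Benjamini-Hochberg adjusted p under 0.05 in limma over all genes tested.

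The dKO atrial libraries held 16.9 ± 2.54 megareads (SD, n = 4) and the dKO ventricular libraries a mean of 12.3 megareads, the shallowest being the ventricle of dKO embryo 2 with 7.88 megareads. A floor of 3 reads equals 0.110 to 0.312 CPM over the 16 libraries. Replicates are separate embryos. The titles of dKO embryos 2 and 3 and of control embryos 1 and 2 open with 1 number, and these 4 embryos, 2 of each genotype, are called the shared-number embryos here. The title of dKO embryo 4 opens with another number, which control embryos 3 and 4 carry as well, and that of dKO embryo 1 with a number of its own. The marker genes of each chamber went with the labels in all 8 dKO libraries: the summed level of the ventricular myocyte list was 3126 to 3775 CPM in atria and 21273 to 23037 CPM in ventricles, and that of the atrial list 19665 to 23346 and 6994 to 7677 CPM.

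The targeted genes were not reduced equally in both chambers. Meis1 (ENSMUSG00000020160, chromosome 11, 18879817 to 19018985, minus strand; coordinates here are GRCm38) measured 25.8, 25, 22.9 and 30.5 CPM in the atria of dKO embryos 1 to 4 and 43.4, 41.9, 40.4 and 37.8 CPM in their ventricles. Every dKO ventricle lay above every dKO atrium, and the log2 difference was 0.64 ± 0.08 (adjusted p = 2.7e-06). In control embryos the log2 difference was 0.04, and the difference between genotypes was 0.60 ± 0.11 (adjusted p = 0.00464). Meis2 (ENSMUSG00000027210, chromosome 2, 115863064 to 116065839, minus strand) measured 25.3, 25.1, 26.5 and 29.2 CPM in dKO atria and 26.9, 20.5, 21.7 and 24.3 CPM in dKO ventricles. These ranges overlap, and the log2 difference of -0.18 ± 0.08 was not called (adjusted p = 0.0825). It was called after each library was re-centred on its median gene (-0.24, adjusted p = 0.0247) and without dKO embryo 1 (-0.27, adjusted p = 0.019). Control embryos had more Meis2 in ventricles, by a log2 of 0.61, and the difference between genotypes was -0.79 ± 0.12 (adjusted p = 0.000573).

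Against control libraries of the same chamber, Meis1 stood at 64.5% in dKO atria and 98.5% in dKO ventricles, with exact permutation p = 0.0286 and 0.8 over 70 arrangements. Meis2 stood at 105% in dKO atria and 59.6% in dKO ventricles, with exact permutation p = 0.486 and 0.0286. The value 0.0286 is the smallest this test allows. Thus each chamber showed lower RNA of 1 of the 2 genes. These values count reads over whole genes, and the levels of the floxed exons alone were not used here.

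Among 13950 genes, 6844 differed between dKO chambers (49.1%). The ventricle had the higher level in 3699 (26.5%) and the atrium in 3145 (22.5%). In 6253 of the 6844 genes all 4 embryos moved the same way, which the call favours because it uses the same embryos. The share over all genes tested is not given here. In 5480 of all genes tested (39.3%) the 4 atrial and 4 ventricular values did not overlap. The balance of directions moved with the scaling: 2867 genes were called higher in ventricles and 3753 in atria after re-centring. The deposited CPM summed to more in every ventricular library than in every atrial library. Within the shared-number dKO embryos the counts were 3005 and 2681. Large differences lay more often on the atrial side, and this held under all 22 settings tried, the main one included. Leaving out a control embryo or the block keeps the dKO log2 differences as they are, so such settings could change only the calls. Among called genes, 317 were at least 2-fold higher in ventricles (2.27%) and 678 in atria (4.86%). At 4-fold or more, the counts were 51 (0.366%) and 131 (0.939%). These counts moved with the setting. The 2-fold counts ran from 166 and 298 with a pseudocount of 5 to 425 and 993 by DESeq2. Under the same settings the 4-fold counts ran from 24 and 39 to 113 and 307. In bulk tissue, fewer cells of a type and less RNA per cell cannot be told apart in any of these differences.

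The 12 leading ventricular genes include contractile proteins, transcription factors, a channel subunit and enzymes. Leading genes of either direction were named only where the chambers did not overlap. Myl2, the ventricular regulatory light chain of myosin (ENSMUSG00000013936, chromosome 5, 122100951 to 122113472, plus strand), measured 25, 38.8, 29.4 and 34.8 CPM in the 4 dKO atria and 2948, 3428, 2949 and 3309 CPM in the ventricles. The ventricular mean was 98.7 times the atrial mean (log2 6.6 ± 0.20, adjusted p = 1.82e-14). Myl3, the ventricular essential light chain, measured 59.1, 34.3, 31.3 and 33.1 CPM in atria and 2327, 2819, 2668 and 2641 CPM in ventricles (log2 6.06 ± 0.15, adjusted p = 8.54e-16). Embryo 1 had the highest atrial and the lowest ventricular Myl3, and the chambers remained far apart. Mb, myoglobin, which binds oxygen in muscle, measured 11.1 to 15.7 CPM in atria and 527 to 679 CPM in ventricles (log2 5.3).

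Myh7, the slow beta-myosin heavy chain, varied most between embryos among these genes. Its ventricular levels were 12133, 11882, 12182 and 13031 CPM, and its atrial levels 958, 177, 177 and 987 CPM. Embryos 1 and 4 were therefore high in the atrium and embryos 2 and 3 low. Embryos 2 and 3 are the shared-number dKO embryos, so embryo and title number cannot be told apart in this split. The log2 difference was 3.66 and 3.72 in the former pair and 6.06 and 6.1 in the latter, with a fitted value of 4.89 ± 0.48 (adjusted p = 1.18e-07). Myh7 shares sequence with Myh6 and has exons that overlap a gene on the opposite strand, so reads from either could be counted in it.

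Transcription factors of the ventricle were among these genes. Irx4, a ventricular homeobox factor (ENSMUSG00000021604, chromosome 13, 73260479 to 73269608, plus strand), measured 54.9, 56.7, 59.8 and 55.2 CPM in ventricles and 0.136, 0.506, 0.339 and 0.025 CPM in atria, where embryos 1 and 4 lay under the floor. Its log2 difference of 5.54 depends on the pseudocount and ran from 3.55 to 8.28 over the settings tried. Irx2, of the same family, measured 12.7, 16.8, 15.1 and 17 CPM in ventricles and 0.0272 to 0.876 CPM in atria (log2 3.58). Hey2, a repressor that acts in the compact ventricular wall, measured 138, 127, 144 and 125 CPM in ventricles and 8.24, 6.5, 5.48 and 10.6 CPM in atria (log2 3.98 ± 0.13). No ventricular library came near the atrial range for any of the 3 factors, and the naming rule allowed no overlap.

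The remaining leaders were a channel subunit, a receptor and enzymes. Kcne1, a subunit of slow potassium channels, measured 3.45 to 7.47 CPM in atria and 119 to 127 CPM in ventricles (log2 4.5). Ddc, the decarboxylase of aromatic amino acids, measured 2.85 to 4.68 CPM in atria and 66.6 to 117 CPM in ventricles (log2 4.42). Lpar3, a receptor for lysophosphatidic acid, measured 1.93 to 2.61 CPM in atria and 38 to 48.4 CPM in ventricles (log2 3.8). Asb11 (log2 3.7) and Upp1, uridine phosphorylase (log2 3.66), completed the 12.

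On the atrial side the largest difference was that of Sln, sarcolipin, a small inhibitor of the calcium pump (ENSMUSG00000042045, chromosome 9, 53850164 to 53854560, plus strand). It measured 429.5, 410.4, 366 and 395 CPM in dKO atria and 4.31, 2.55, 5.41 and 3.28 CPM in dKO ventricles. The atrial mean was 103 times the ventricular mean (log2 -6.39 ± 0.17, adjusted p = 3.25e-15). Myl7, the atrial regulatory light chain (ENSMUSG00000020469, chromosome 11, 5896637 to 5898782, minus strand), measured 3506, 3486, 3506 and 3929 CPM in atria and 184, 174, 219.8 and 207 CPM in ventricles (log2 -4.2 ± 0.09, a ratio of 18.4). The regulatory light chains Myl7 and Myl2 thus separated the dKO chambers in opposite directions. Mybphl, a myosin-binding protein of atrial muscle, measured 82.7 to 97.6 CPM in atria and 1.09 to 2.11 CPM in ventricles (log2 -5.19).

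Genes of calcium sensing and of channel regulation were also among the atrial leaders. Vsnl1, a neuronal calcium sensor, measured 77.1, 63.3, 73.9 and 87 CPM in atria and 0.156 to 0.796 CPM in ventricles (log2 -5.7). Fgf12, an intracellular partner of sodium channels, measured 149, 126, 132 and 128 CPM in atria and 4.14, 2.34, 2.81 and 6.78 CPM in ventricles (log2 -4.83). Slc17a7, a vesicular glutamate transporter, measured 53.5 to 77.7 CPM in atria and 1.4 to 1.69 CPM in ventricles (log2 -4.79). All 3 were present in every dKO atrium and at 6.78 CPM or less in every dKO ventricle. The kinase genes Camk1d (log2 -4.22), Sbk2 (-4.27) and Sbk3 (-3.98) followed.

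Regulators were among them too. Nr2f1, a nuclear receptor of atrial muscle (ENSMUSG00000069171, chromosome 13, 78188973 to 78199757, minus strand), measured 106, 111, 117 and 103 CPM in atria and 4.36, 4.1, 4.95 and 4.49 CPM in ventricles (log2 -4.33 ± 0.12, a ratio of 24.4). Shox2, a homeobox factor of the sinus node, measured 23.6, 38.7, 46.5 and 57.1 CPM in atria and 0.872, 2.23, 1.01 and 1.05 CPM in ventricles (log2 -4.18). Its atrial level was lowest in embryo 1 and highest in embryo 4. Angpt1, a ligand of the endothelial receptor Tek, measured 265, 151, 155 and 124 CPM in atria and 8.58, 8.36, 6.8 and 10.4 CPM in ventricles (log2 -4.15), with embryo 1 the highest atrium. Exons of Nr2f1, Shox2, Angpt1 and Mybphl overlap genes on the opposite strand.

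**Figure D1:**
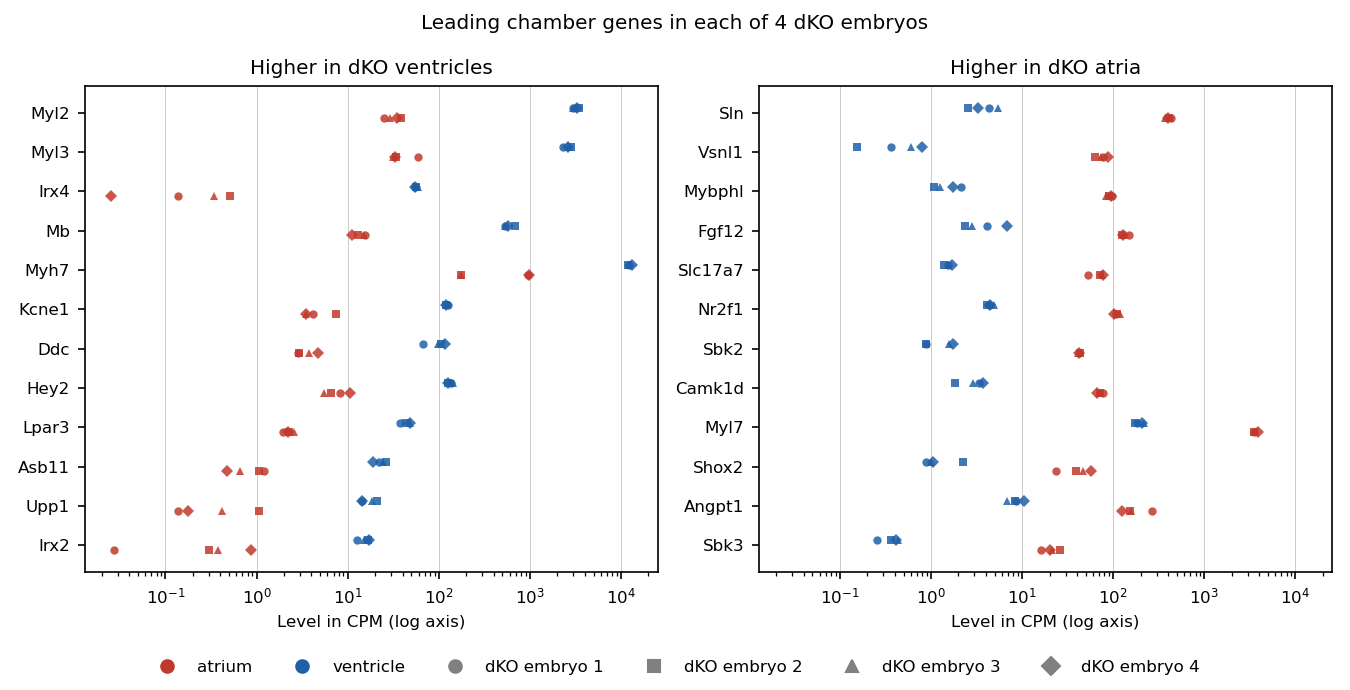
Level in CPM (log axis) of the 12 leading genes of each direction in the atria (red) and ventricles (blue) of the 4 dKO embryos, with 1 marker shape per embryo. The chambers do not overlap in any of the 24 genes, which the naming rule required. The atrial points of Myh7 split between 177 CPM (embryos 2 and 3, the shared-number dKO embryos) and 958 to 987 CPM (embryos 1 and 4).

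Gene lists by role were counted next, and each count is to be read beside the shares over all genes tested. Those shares were 26.5% higher in ventricles and 22.5% higher in atria. Of 21 atrial myocyte genes tested, 19 were higher in dKO atria and 1 in ventricles, with a median log2 difference of -2.31, beside 0.027 over all genes tested. The ventricular exception was Kcna5, a potassium channel, with 6.82, 6.42, 10.1 and 10.9 CPM in atria and 12.2, 12.1, 12.1 and 11.2 CPM in ventricles (log2 0.46 ± 0.12, adjusted p = 0.00421). Nr2f2, a nuclear receptor of atrial identity, measured 99.1 to 111 CPM in atria and 17.6 to 19.7 CPM in ventricles (log2 -2.41). Tbx5 measured 163 to 198 CPM in atria and 40.2 to 54.7 CPM in ventricles (log2 -1.93), and Gnao1, a G protein subunit, 185 to 214 CPM in atria and 37.9 to 43.3 CPM in ventricles (log2 -2.31). Of 18 ventricular myocyte genes, 14 stood higher in ventricles and 3 in atria, with a median of 2.51. The 3 were Ankrd1, a stretch-responsive muscle protein (log2 -0.95), Xdh, xanthine dehydrogenase (-0.76), and Irx5 (-0.37, adjusted p = 0.0379). Irx5 measured 10.5 to 15.8 CPM in atria and 8.81 to 11.1 CPM in ventricles, ranges that overlap. Xdh and Irx5 lost their calls in the shared-number embryos, and Irx5 also without dKO embryo 1 (-0.23), 2 (-0.42) or 3 (-0.39).

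Of 32 chamber transcription factors tested, 18 were higher in dKO ventricles and 13 in dKO atria. After re-centring the ventricular count was 14 and the atrial count 13. Prdm16, a factor of compact ventricular muscle, measured 1.77, 2.33, 1.93 and 3.08 CPM in atria and 32.7, 31.5, 35.5 and 31.5 CPM in ventricles (log2 3.38). Irx3 measured 7.58, 7.27, 6.04 and 3.88 CPM in atria and 26.4, 33.2, 25.6 and 25.2 CPM in ventricles (log2 2.02). On the ventricular side stood also Irx1 (log2 3.47) and Hand1, a factor of the left ventricle (3.002). On the atrial side stood Gata5 (-2.04), Irx6 (-1.5), Isl1, a factor of cardiac progenitors and the sinus node (-1.27), and Tbx3, a repressor in conduction tissue (-1.2). Factors made throughout the heart differed by small amounts, with log2 differences of 0.16 for Nkx2-5, 0.40 for Gata4, 0.13 for Gata6 and 0.14 for Mef2c.

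Of 29 sarcomere genes, 14 were higher in dKO ventricles and 8 in atria. Myh7b, a myosin heavy chain, measured 13.9, 9.7, 10.7 and 9.44 CPM in atria and 84.1, 80.4, 95.1 and 92 CPM in ventricles (log2 2.91 ± 0.10). Tmod1, which caps the pointed ends of actin filaments, measured 159, 159, 142 and 153 CPM in atria and 299, 320.1, 308 and 309 CPM in ventricles (log2 1.01 ± 0.06). Both genes, named for a small adjusted p, separated the chambers in every embryo, at very unlike sizes. Ttn, the spring of the sarcomere (log2 1.26), Actn2, alpha-actinin of the Z disc (1.19), and Mybpc3, cardiac myosin-binding protein C (1.11), were higher in ventricles as well. Myl4, the atrial essential light chain, measured 3411, 3311, 3412 and 3606 CPM in atria and 1299, 1486, 1364 and 1411 CPM in ventricles (log2 -1.31). Tpm2, beta-tropomyosin (-1.16), and Myh6, alpha-myosin heavy chain (-1.8), were also higher in atria. Actc1, Acta1, Tnni3, Tpm1, Myom2 and Tcap were among the genes not called.

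Genes of the layers of the ventricular wall were counted separately. Of 10 genes of the compact outer layer, 8 stood higher in ventricles and 0 in atria (6 and 0 after re-centring). Mycn, a driver of myocyte division, measured 10.6, 7.31, 9.35 and 9.59 CPM in atria and 33, 28, 32.6 and 34 CPM in ventricles (log2 1.69), and Hopx 104, 77.3, 72.6 and 75.5 CPM in atria and 223, 244, 237 and 237 CPM in ventricles (log2 1.52). Of 12 genes of the trabeculae, the inner muscular ridges, 4 stood higher in ventricles and 6 in atria, with a median of -0.56. Slit3, a secreted guidance ligand, measured 72.3, 83.7, 81.9 and 75.2 CPM in atria and 17.4, 11.5, 16.6 and 20.3 CPM in ventricles (log2 -2.21 ± 0.11). Gja5, the connexin of atria and of fast conducting tissue, measured 405, 317, 314 and 337 CPM in atria and 168, 154, 174 and 171 CPM in ventricles (log2 -1.03). Cited1, a transcriptional coactivator, was on the ventricular side, with 24.2, 13.1, 15 and 22.4 CPM in atria and 61, 57.2, 56.7 and 69.1 CPM in ventricles (log2 1.7). The lists share members, and the difference between them was not tested.

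Genes of calcium handling were divided. Of 26 tested, 10 stood higher in ventricles and 11 in atria. The ventricular count was 6 after re-centring, with the atrial count unchanged, and 6 without dKO embryo 4. Pln, phospholamban, the ventricular inhibitor of the calcium pump, measured 154, 118, 118 and 119 CPM in atria and 1257, 1378, 1162 and 1246 CPM in ventricles (log2 3.3 ± 0.09), opposite to Sln. The pump Atp2a2 itself had a log2 difference of -0.05 and was not called. Cacna1c, the pore of the L-type calcium channel of working muscle, measured 60.3, 69, 60.9 and 51.3 CPM in atria and 183, 154, 173 and 174 CPM in ventricles (log2 1.49). Cacna1d, the L-type pore of pacemaker tissue, was on the atrial side, with 25.4, 37.4, 27.6 and 26.3 CPM in atria and 16.4, 10.7, 11.2 and 13.8 CPM in ventricles (log2 -1.11). Ryr3, a calcium release channel, was as well, with 10.7, 7.31, 12.2 and 8.99 CPM in atria and 3.18, 3.07, 3.15 and 4.36 CPM in ventricles (log2 -1.27). Ryr2, the main release channel of heart muscle, had a log2 difference of 0.23 and was not called.

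Of 24 potassium channel genes, 9 stood higher in ventricles and 9 in atria. Abcc9, the regulatory subunit of ATP-sensitive channels, measured 40.1, 42.7, 37.9 and 35.6 CPM in atria and 155, 133, 136 and 136 CPM in ventricles (log2 1.82). Kcnq1, the pore partnered by Kcne1, measured 5.73 to 8.43 CPM in atria and 26.9 to 29 CPM in ventricles (log2 1.86), and Kcnip2, a subunit of transient outward channels, 0.379 to 0.676 CPM in atria and 8.42 to 13.4 CPM in ventricles (log2 2.89). Kcnj3 and Kcnj5, which together form the acetylcholine-gated channel, were both on the atrial side. Kcnj3 measured 122, 118, 99.6 and 82.9 CPM in atria and 16.7, 15.7, 15.9 and 12.4 CPM in ventricles (log2 -2.71), and Kcnj5 166, 174, 176 and 148 CPM in atria and 87.6, 79, 74 and 79.4 CPM in ventricles (log2 -1.04). Kcnd3 (log2 -1.62) and Kcnk3, a background channel (-1.43), were higher in atria too.

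Of 18 sodium channel and junction genes, 7 stood higher in ventricles and 6 in atria (3 in atria in the shared-number embryos). The 7 were all junction genes. Gja1, the main ventricular connexin, measured 80.2, 61.5, 80.7 and 69.9 CPM in atria and 326, 343, 363 and 336 CPM in ventricles (log2 2.22 ± 0.08). Dsc2, a desmosomal cadherin, measured 9.43, 8.4, 7.67 and 10.04 CPM in atria and 35, 38.7, 35.2 and 36.1 CPM in ventricles (log2 1.92 ± 0.08, adjusted p = 1.49e-12). Every dKO ventricle held more than 3 times the Dsc2 level of every dKO atrium. Cdh2, the cadherin of the intercalated disc (log2 1.15), and Pkp2, a desmosomal plaque protein (1.09), followed. On the atrial side, the sodium channel genes Scn3b (-1.45, 0.843, 2.53, 4.88 and 8.63 CPM in atria) and Scn10a (-0.66) had ranges that overlap between chambers, and both calls were lost without dKO embryo 4 (-0.97 and -0.51).

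Of 16 genes of pacemaker and conduction tissue, 13 were higher in dKO atria and 2 in ventricles, with a median of -1.23. Hcn4, the pacemaker channel, measured 90.4, 105, 130.3 and 114 CPM in atria and 14.4, 13.1, 15 and 16.4 CPM in ventricles (log2 -2.81 ± 0.11). Smoc2, a matrix protein, measured 85, 75.9, 87.1 and 103 CPM in atria and 20.2, 16.7, 17.4 and 20.4 CPM in ventricles (log2 -2.17). The ventricular members were the homeobox genes Msx1 (log2 1.32) and Msx2 (1.08), at low levels of 4.14 to 6.28 and 1.24 to 3.18 CPM in ventricles. The call of Msx2 was lost in the shared-number embryos.

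Of 14 natriuretic and stress genes, 8 were higher in dKO atria and 4 in ventricles. Nppa, atrial natriuretic peptide, measured 6604, 5490, 6427 and 5160 CPM in atria and 2518, 2593, 2672 and 3108 CPM in ventricles (log2 -1.12 ± 0.14, adjusted p = 2.84e-06). Its atrial mean was 2.17 times the ventricular mean. Npr3, the clearance receptor of natriuretic peptides, measured 357, 262, 251 and 186 CPM in atria and 68.5, 62, 76.5 and 75.1 CPM in ventricles (log2 -1.86), with embryo 1 the highest atrium and embryo 4 the lowest. Nppb (log2 -1.12), the receptor Npr1 (-0.65) and the protease Furin (-0.80) were higher in atria. Hspb7, a small heat shock protein of muscle, was on the ventricular side, with 349, 362, 413 and 410.5 CPM in atria and 829, 836, 810.5 and 923 CPM in ventricles (log2 1.15 ± 0.07).

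Signalling genes were counted in 4 lists. Of 12 retinoic acid genes, 6 were higher in atria and 1 in ventricles. Aldh1a2, which makes retinoic acid and is also an epicardial marker, measured 56.3, 56.8, 65.7 and 60.8 CPM in atria and 14.1, 17.3, 16.5 and 14.9 CPM in ventricles (log2 -1.87). The receptor Rarb was on the same side (log2 -0.65), and the receptor Rxra was the ventricular member (0.69). Of 26 genes of BMP and TGF-beta signalling, 15 were higher in atria and 1 in ventricles. The ligand Bmp4 measured 16.4, 20.8, 29.8 and 29.9 CPM in atria and 9.32, 4.94, 5.47 and 8.18 CPM in ventricles (log2 -1.66), and Bmp2 27.9, 29.5, 26.4 and 23.8 CPM in atria and 11.2, 9.72, 9.87 and 10.1 CPM in ventricles (log2 -1.31). The target genes Id1 (-0.42), Id2 (-0.69) and Id3 (-0.74) and the inhibitor Smad7 (-0.94) shared this direction. The ligand Bmp5 was the ventricular member (0.31, adjusted p = 0.0124), with overlapping ranges and a call lost without dKO embryo 4 (0.21).

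Of 16 Notch and neuregulin genes, 7 were higher in atria and 5 in ventricles, beside 22.5% and 26.5% of all genes tested. The Notch ligand Jag1 measured 55.6, 55.1, 46.6 and 51.8 CPM in atria and 19.6, 13.5, 15.54 and 15.9 CPM in ventricles (log2 -1.65). Nrg1, a growth factor from the endocardium, measured 11, 7.19, 7.2 and 5.58 CPM in atria and 2.39, 4.1, 2.69 and 3.73 CPM in ventricles (log2 -1.03). The ligand Dll4 (log2 0.82) and the receptor Notch4 (0.72), both of vessels, were on the ventricular side. Of 14 Wnt pathway genes, 6 were higher in atria and 4 in ventricles. Without dKO embryo 1 the counts were 7 and 1, and in the shared-number embryos 7 and 2. The secreted inhibitors took both sides. Wif1 measured 0.516, 0.344, 0.498 and 2.93 CPM in atria and 7.8, 7.12, 8.77 and 6.53 CPM in ventricles (log2 2.19), with a high atrium in embryo 4. Sfrp1 measured 574, 565, 526 and 536 CPM in atria and 291, 296, 329 and 372 CPM in ventricles (log2 -0.78), and Sfrp5 46.3, 56, 49 and 51.4 CPM in atria and 15.1, 14.5, 13.9 and 15.1 CPM in ventricles (log2 -1.72).

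Genes of energy metabolism were mostly higher in dKO ventricles, by moderate amounts. Of 38 nuclear genes of oxidative phosphorylation, 34 stood higher in ventricles and 1 in atria (median 0.51), and of 13 genes encoded by the mitochondrial genome 12 and 0 (median 0.61). For fatty acid oxidation the counts were 20 and 2 of 25 (median 0.58), and for glycolysis 16 and 2 of 21 (median 0.43). Sdha, a subunit of succinate dehydrogenase, measured 294, 286, 305 and 266 CPM in atria and 595, 679.9, 619 and 586 CPM in ventricles (log2 1.1 ± 0.06). mt-Nd1, a subunit of complex I, measured 2584, 2401, 2391 and 2570 CPM in atria and 4313, 4874, 4578 and 4072 CPM in ventricles (log2 0.84). Eci1, an enzyme of fatty acid breakdown, measured 35.5, 31.4, 30.3 and 32.2 CPM in atria and 85.8, 101, 84.5 and 84.7 CPM in ventricles (log2 1.43). In each of these genes, named for a small adjusted p, the chambers did not overlap, as in 39.3% of all genes tested. Fabp3, a fatty acid binding protein (log2 1.81), and Hk1, hexokinase 1 (1.1), were higher in ventricles as well. The members higher in atria were Cox6a2, a muscle form of a cytochrome oxidase subunit (-0.30), Acaa2, a thiolase (-0.34), Slc27a1, a fatty acid transporter (-0.63), Pgam2, the muscle phosphoglycerate mutase (-0.89), and Slc2a1, a glucose transporter (-0.35).

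Of 28 cell cycle genes, 23 were higher in dKO ventricles and 0 in atria, with a median of 0.52. Ccnb1, cyclin B1, measured 72.8, 61.1, 67.9 and 63.4 CPM in atria and 111, 126, 120.2 and 109 CPM in ventricles (log2 0.81 ± 0.07). Rrm2, a subunit of ribonucleotide reductase, measured 73, 79.97, 84.5 and 83.2 CPM in atria and 124, 169.6, 149 and 149.7 CPM in ventricles (log2 0.87). Mki67, a marker of dividing cells, had a log2 difference of 0.74. The genes not called were Ccne1, Ccne2, Cdk2, Tyms and E2f1.

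**Figure D2:**
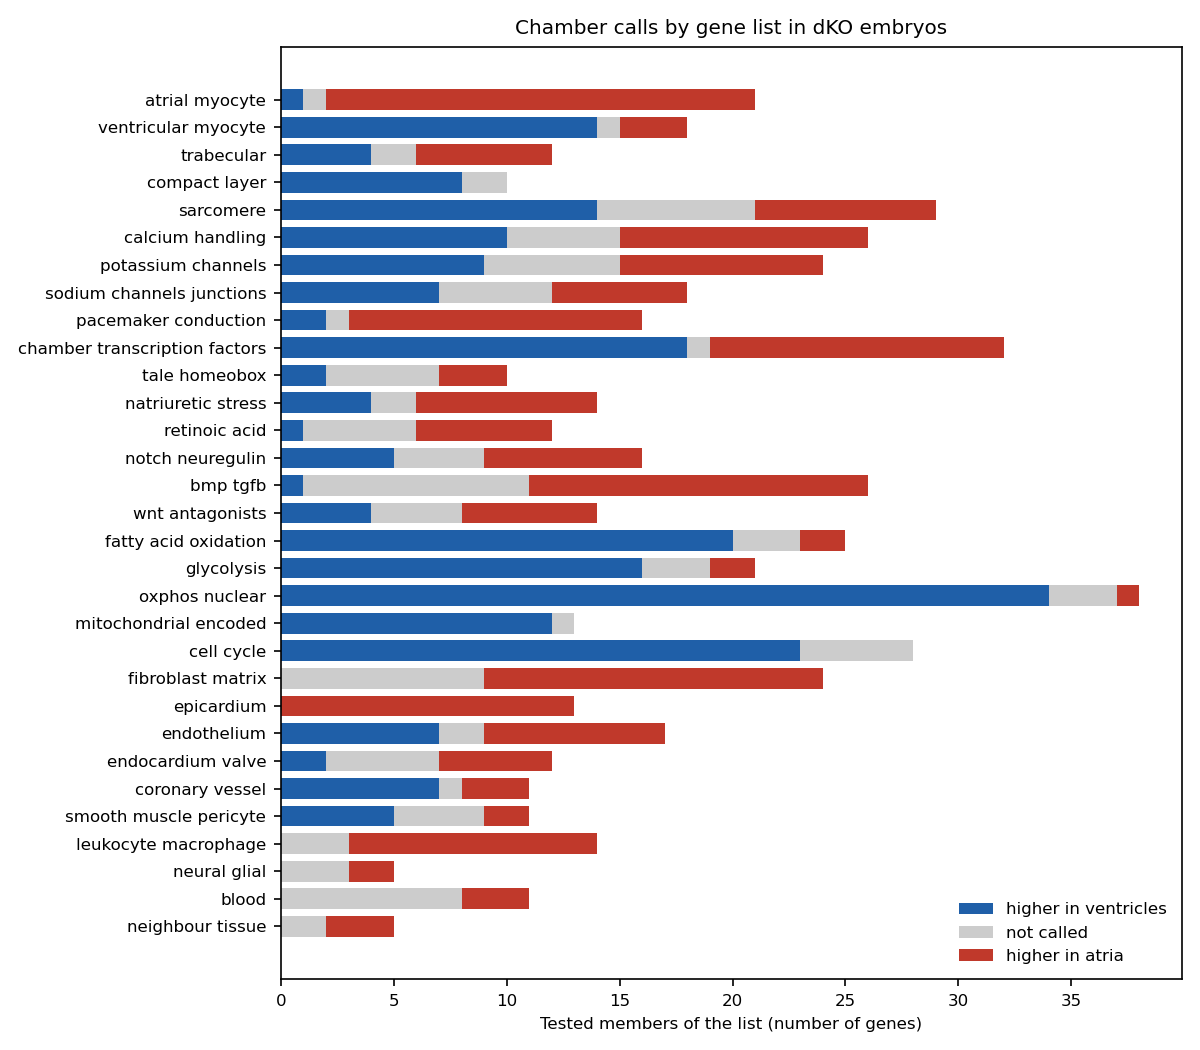
Number of tested genes of each list that were called higher in dKO ventricles (blue), called higher in dKO atria (red) or not called (grey). All 13 epicardial genes were called higher in atria, and 34 of 38 nuclear genes of oxidative phosphorylation higher in ventricles.

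Markers of cells other than myocytes moved with the chamber as well. All 13 markers of the epicardium, the outer covering of the heart, were higher in dKO atria, and their summed level was 601 to 692 CPM in atria and 174 to 220 CPM in ventricles. Upk3b measured 186, 161, 203 and 174 CPM in atria and 16.3, 16.7, 23.6 and 16.2 CPM in ventricles (log2 -3.26). Of 24 fibroblast and matrix genes, 15 were higher in atria and 0 in ventricles, with sums of 11752 to 18137 CPM and 7430 to 9325 CPM. Dcn, decorin, measured 228, 253, 222 and 304 CPM in atria and 133, 118, 123 and 114 CPM in ventricles (log2 -1.03), while Postn and Pdgfra were not called. Of 14 macrophage and leukocyte markers, 11 were higher in atria and 0 in ventricles, with sums of 134 to 215 CPM and 103 to 119 CPM. Embryo 1 had the lowest atrial sum of these. Csf1r, the receptor for the macrophage growth factor, measured 30.1, 49.9, 50.7 and 48 CPM in atria and 19.3, 22.6, 27.3 and 19.3 CPM in ventricles (log2 -0.97).

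Vessel genes took both sides. Of 17 endothelial genes, 7 stood higher in ventricles and 8 in atria, with sums of 1491 to 1900 CPM in atria and 1396 to 1487 CPM in ventricles. Plvap, a protein of endothelial fenestrae, measured 203, 164, 154 and 128 CPM in atria and 45.1, 46.5, 51.9 and 43 CPM in ventricles (log2 -1.76). The transcription factors Sox17 (log2 1.68) and Sox18 (1.31) were on the ventricular side. Of 11 coronary vessel genes, 7 stood higher in ventricles and 3 in atria. Fabp4, a fatty acid binding protein of capillaries, measured 21.3, 31.5, 33.1 and 39.7 CPM in atria and 115, 134, 129.7 and 114 CPM in ventricles (log2 1.97), and the peptide Apln 4.27, 5.49, 6.48 and 7.83 CPM in atria and 26.3, 24.7, 22.4 and 26.1 CPM in ventricles (log2 1.9). The summed level of that list nevertheless overlapped between chambers.

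Of 12 endocardial and valve genes, 2 stood higher in ventricles and 5 in atria, beside 26.5% and 22.5% of all genes tested. Vcan, versican, a matrix proteoglycan, measured 77.3, 103, 94.3 and 89.7 CPM in atria and 369, 351, 432 and 372 CPM in ventricles (log2 2.05). Adgrg6, an adhesion receptor, measured 163, 111, 99.8 and 74 CPM in atria and 26.1, 20.3, 26.7 and 25.3 CPM in ventricles (log2 -2.09). Of 11 smooth muscle and pericyte genes, 5 stood higher in ventricles and 2 in atria (4 in atria in the shared-number embryos). The pericyte gene Rgs5 measured 21, 18.3, 14.2 and 28 CPM in atria and 96.4, 73.6, 70.7 and 64.3 CPM in ventricles (log2 1.88). The smooth muscle genes Myh11 (log2 -2.01) and Tagln (-1.45) were those on the atrial side, and Tagln measured 64.8, 91.7, 186 and 190.4 CPM in atria and 58.2, 30.7, 38.6 and 51.2 CPM in ventricles, with embryos 3 and 4 the highest atria.

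Nerve, blood and neighbouring tissue were checked last. Of 5 nerve markers tested, 2 were higher in atria. That count was 4 without dKO embryo 1, 1 without dKO embryo 2, 3 or 4, 4 without control embryo 3, 1 without control embryo 4 and 4 by edgeR. The sum of all 12 nerve markers in the table ran from 8.32 CPM in the atrium of embryo 1 to 44.5 CPM in that of embryo 4, with 5.56 to 9.51 CPM in ventricles. Of 11 blood genes, 3 were higher in atria and 0 in ventricles, beside 22.5% and 26.5% of all genes tested. No globin gene was called. Of 5 genes of neighbouring tissue, 3 were higher in atria, among them Actn3, of fast skeletal muscle, with 5.14, 5.2, 6.04 and 4.63 CPM in atria and 0.253, 0.052, 0.897 and 0.86 CPM in ventricles. Sox10, a glial marker, lay below the level tested. The part of these cells and tissues in the chamber differences of other genes was not tested.

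**Figure D3:**
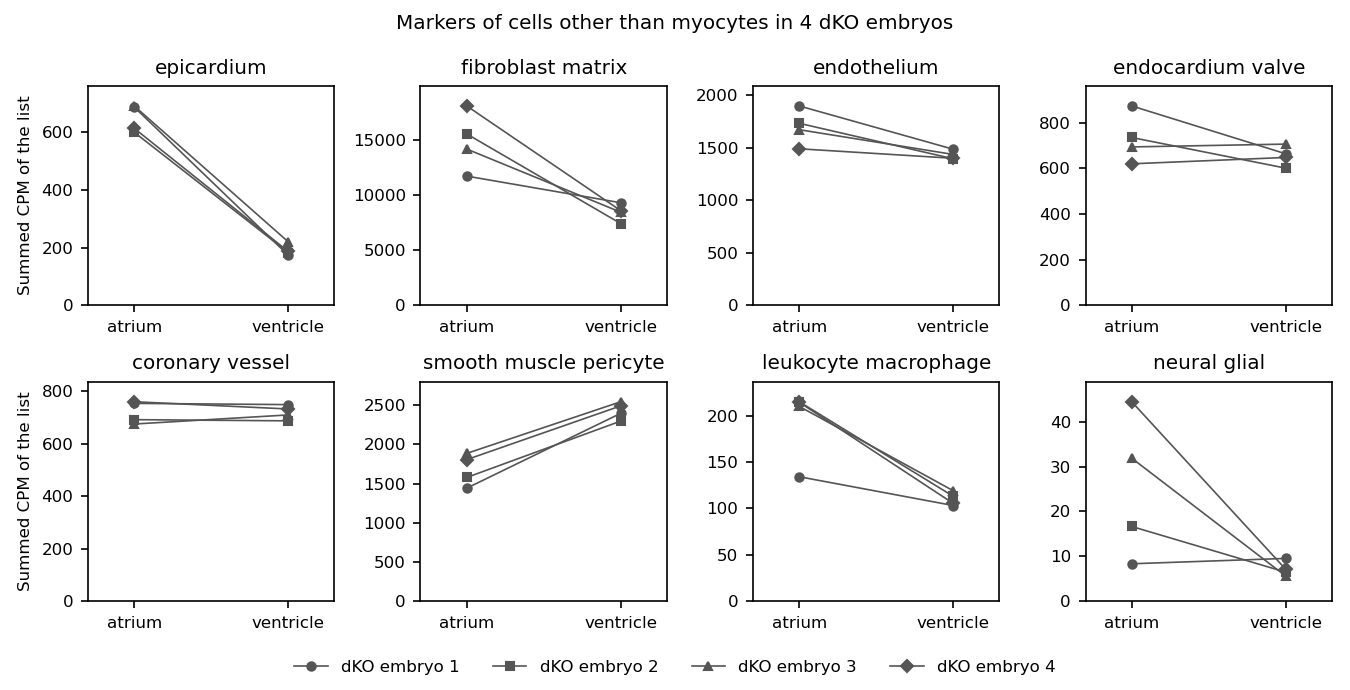
Summed CPM of 8 marker lists of cells other than myocytes in the atrium and ventricle of each dKO embryo, with 1 marker shape per embryo and lines joining the chambers of an embryo. Epicardial sums are 601 to 692 CPM in atria and 174 to 220 CPM in ventricles, while the coronary vessel sums overlap.

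The dKO chamber differences were then set beside those of control embryos, where 6543 genes were called (46.9%). Of the 6844 dKO calls, 5182 were also called in control embryos, which is 75.7% of the dKO calls and 79.2% of the control calls, and 5145 of them had the same direction. Across genes, which are not independent replicates, the log2 differences of both genotypes had r = 0.89 and rho = 0.83. Of the 317 genes at least 2-fold higher in dKO ventricles 308 were called the same way in control embryos, and of the 678 atrial genes 643. Most of the chamber pattern of dKO hearts was thus also called in control hearts.

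The test of the difference between genotypes called 368 genes (2.64%). Of these, 183 were shifted towards the ventricle in dKO embryos (1.31%) and 185 towards the atrium (1.33%). The count was 226 in the shared-number embryos, 238 without dKO embryo 3 and 241 without control embryo 4. In 147 of the 368 genes the chamber difference was larger in dKO embryos with the same sign, in 103 it was smaller with the same sign, and in 118 the signs were opposite. In 37 of the 118 both chamber differences were called, 23 of them ventricular in dKO and atrial in control embryos and 14 the reverse. Being called in dKO embryos alone seldom meant a called difference between genotypes, which was found for 74 of 1662 such genes.

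**Figure D4:**
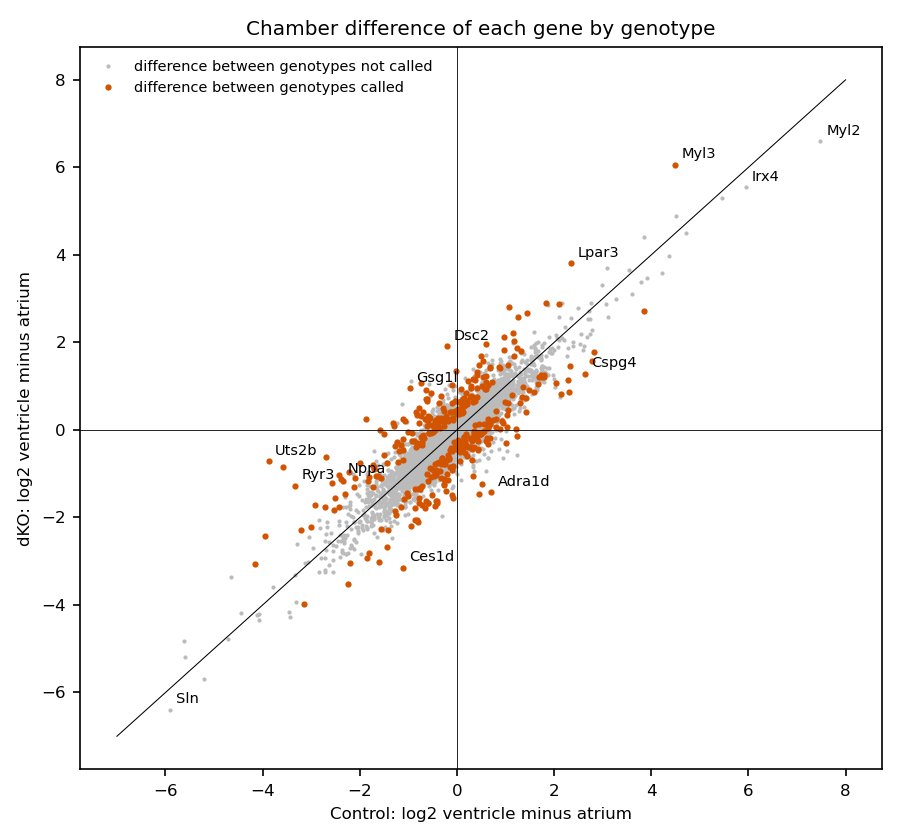
Log2 difference of ventricle minus atrium in dKO embryos (vertical axis) against that in control embryos (horizontal axis) for 13950 genes, with the 368 genes whose difference between genotypes was called in orange and a line where both are equal. Most genes lie along the line, and Dsc2 and Gsg1l lie above 0 in dKO and below 0 in control embryos.

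Dsc2 had the smallest adjusted p of this test. Its dKO atria held 8.89 ± 1.05 CPM and control atria 42.2 ± 5.54 CPM (SD, n = 4), and its ventricles 36.3 ± 1.69 and 36.3 ± 1.71 CPM. The log2 difference between chambers was 1.92 in dKO and -0.20 in control embryos (difference 2.12 ± 0.11, adjusted p = 5.74e-09). The ventricles of both genotypes overlapped, and the atria did not. Gsg1l, a regulatory subunit of glutamate receptors (ENSMUSG00000046182, chromosome 7, 125878420 to 126082411, minus strand), measured 8.13, 7.88, 8.51 and 8.79 CPM in dKO atria and 17.1, 16.5, 18.9 and 15.6 CPM in dKO ventricles. Control embryos had more in atria, with 54.5 ± 8.97 CPM against 27.3 ± 2.08 CPM in ventricles, so that the sign turned (log2 0.95 in dKO and -0.96 in control embryos, difference 1.91 ± 0.14, adjusted p = 3.12e-07). Nav3, a microtubule-binding protein, also turned (1.07 and -0.75).

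Several shifts lay in genes at low levels in dKO atria. Ryr3 stood at 9.8 ± 2.12 CPM in dKO and 72.4 ± 4.86 CPM in control atria, with 3.44 ± 0.617 and 6.33 ± 0.81 CPM in ventricles (difference 2.06 ± 0.18, adjusted p = 1.53e-06). Uts2b, a urotensin-related peptide gene, measured 1.6, 0.142, 0.658 and 0.876 CPM in dKO atria and a mean of 14.6 CPM in control atria, with ventricles of both genotypes under the floor. Ap3b2, a subunit of a vesicle adaptor, measured 0.408, 0.83, 1.02 and 2.93 CPM in dKO atria and a mean of 13.4 CPM in control atria. Dpp6, a potassium channel partner, measured 0.245, 0.79, 0.937 and 1.88 and a mean of 9.47 CPM. The differences of Uts2b (3.16), Ap3b2 (2.74) and Dpp6 (2.07) were not called by edgeR.

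Genes of contraction and coupling were among those with a wider chamber gap in dKO embryos. Gja1 stood at 73.1 ± 9.16 CPM in dKO and 193 ± 22.7 CPM in control atria, and at 342 ± 15.6 and 431 ± 15.55 CPM in ventricles (log2 2.22 and 1.16, difference 1.06 ± 0.11, adjusted p = 1.4e-05). Myl3 stood at 39.4 ± 13.2 and 118 ± 21.1 CPM in atria (log2 6.06 and 4.49, difference 1.57 ± 0.21, adjusted p = 0.000178). Tmod1 stood at 153 ± 8.1 and 266 ± 25.7 CPM in atria and at 309 ± 8.66 and 327 ± 17.3 CPM in ventricles (difference 0.71 ± 0.08, adjusted p = 3.2e-05). In all 3 genes the dKO atria were lower than the control atria. Myh7b (difference 1.09), Abcc9 (0.84), Hspb7 (0.77), Cited1 (1.21) and Lpar3 (1.45) shifted in the same direction. Where the atrium is higher, a shift towards the ventricle narrows the gap instead, as in Ryr3, Kcnj5 and Myl4. The counts that follow hold both kinds and are not counts of wider gaps. A shift towards the ventricle, called for 1.31% of all genes tested, was called for 5 of 29 sarcomere genes, 5 of 26 calcium handling genes, 5 of 24 potassium channel genes, 2 of 18 sodium channel and junction genes and 4 of 18 ventricular myocyte genes. A shift towards the atrium, called for 1.33% of all genes tested, was called for 1 potassium channel gene (Kcnj2) and for 0 genes of those other 4 lists. The shifts called were 2 towards the atrium and 0 towards the ventricle among 17 endothelial genes. They were 2 and 1 in each of the lists of BMP and TGF-beta signalling, Wnt signalling, and smooth muscle and pericytes. These lists share members, and no list was tested against other genes.

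In 3 atrial myocyte genes a called shift narrowed the chamber gap. Nppa stood at 5920 ± 704 CPM in dKO atria and 2722 ± 264 CPM in dKO ventricles, and at 3827 ± 594 and 744 ± 182 CPM in control embryos. Its log2 difference was -1.12 in dKO and -2.38 in control embryos (difference 1.26 ± 0.20, adjusted p = 0.000966). Its level was thus higher in dKO embryos in both chambers, by the larger factor in ventricles. Kcnj5 shifted by 0.58 and Myl4 by 0.42 (adjusted p = 0.0251), and the call of Myl4 was lost without dKO embryo 2 (0.37) or 3 (0.43) or without control embryo 1 (0.45), 2 (0.40) or 4 (0.34). Slit3, of the trabecular list, stood at 78.3 ± 5.41 CPM in dKO and 129 ± 6.76 CPM in control atria (difference 0.80 ± 0.16, adjusted p = 0.00705).

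Other genes shifted towards the atrium. Spock2, a matrix proteoglycan, measured 77.5, 73.6, 80.2 and 63.9 CPM in dKO atria and 7.57, 7.64, 7.32 and 10.4 CPM in dKO ventricles, where control embryos had 35.2 ± 4.5 and 10.9 ± 1 CPM (difference -1.43 ± 0.15, adjusted p = 1.14e-05). Cspg4, a pericyte proteoglycan, stood at 33.2 ± 3.72 CPM in dKO and 13.9 ± 2.33 CPM in control atria, with 82.4 ± 8.7 and 91.5 ± 8.31 CPM in ventricles (difference -1.36 ± 0.15, adjusted p = 1.61e-05). Adra1d, an adrenergic receptor, turned from ventricular in control embryos (log2 0.71) to atrial in dKO embryos (-1.41). The Wnt inhibitors Sfrp1 (difference -0.52) and Sfrp5 (-1.001) shifted the same way, and the call of Sfrp5 was lost by edgeR and DESeq2 and without dKO embryo 2 (-0.95), 3 (-0.99) or 4 (-1.01) or control embryo 2 (-1.01), 3 (-0.71) or 4 (-0.99). In the shared-number embryos the shifts of Sfrp1 (-0.44) and Slit3 (0.46) were not called. Summed smooth muscle and pericyte markers were 1441 to 1886 CPM in dKO atria and 1152 to 1295 CPM in control atria, and their part in these shifts was not tested.

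**Figure D5:**
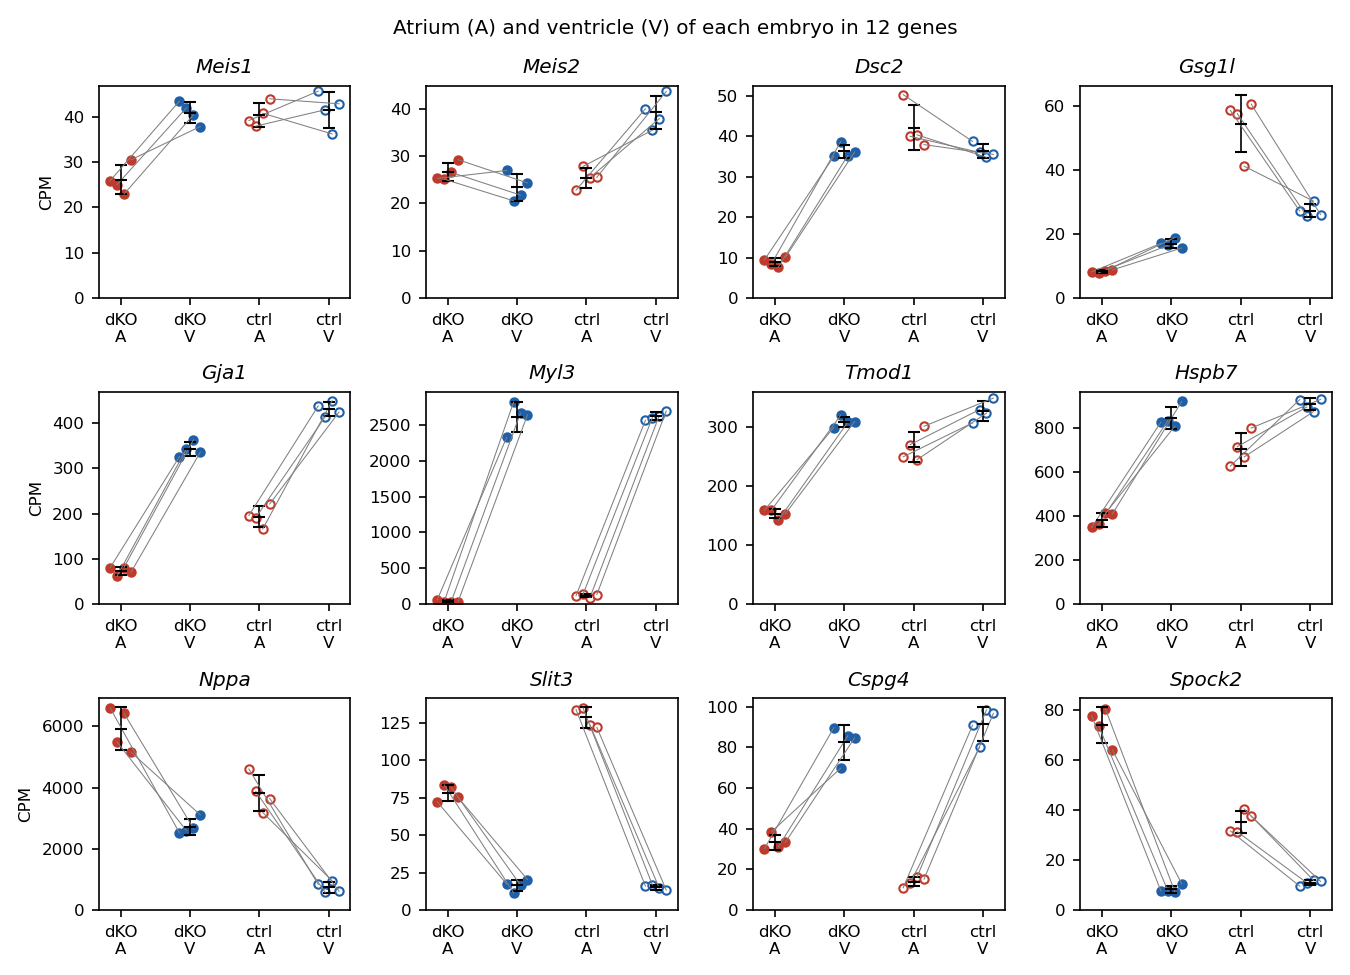
Level in CPM of 12 genes in the atrium (red) and ventricle (blue) of each dKO (filled) and control (open) embryo, with lines joining the chambers of an embryo and bars giving mean and SD. Dsc2 and Gsg1l are higher in ventricles than in atria in all 4 dKO embryos, with means in the opposite order in control embryos.

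Sequence before the transcription start is shown for 4 genes whose chamber difference differed between genotypes, because Meis proteins are known to bind the hexamer TGACAG. RefSeq promoter windows (GRCm38.p6) run from 250 bases before to 50 bases after a start, and the hexamer was sought on both strands (CTGTCA on the other). Windows on the chromosome of Dsc2 were left out of this gene count, so Dsc2 itself was not searched. Of 43 named genes with a called difference between genotypes 30 matched a remaining window. Of these, 8 held the hexamer before a start in at least 1 of their windows. The share of all genes over the same 250 bases was not counted, so this count has no like comparison. The 4 printed are the natriuretic gene Nppa, the sarcomere genes Tmod1 and Myh7b and the ventricular gene Cited1, chosen after their matches were seen. Each runs 5′ to 3′ on the gene's strand for 250 bases up to the start, with the hexamer in capitals.
Nppa, chr4:148000472-148000721, plus strand: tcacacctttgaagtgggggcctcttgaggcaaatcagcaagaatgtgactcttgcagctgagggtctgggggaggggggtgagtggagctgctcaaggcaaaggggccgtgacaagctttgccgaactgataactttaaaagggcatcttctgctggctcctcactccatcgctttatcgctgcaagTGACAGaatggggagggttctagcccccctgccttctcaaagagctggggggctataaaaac
Tmod1, chr4:46038972-46039221, plus strand: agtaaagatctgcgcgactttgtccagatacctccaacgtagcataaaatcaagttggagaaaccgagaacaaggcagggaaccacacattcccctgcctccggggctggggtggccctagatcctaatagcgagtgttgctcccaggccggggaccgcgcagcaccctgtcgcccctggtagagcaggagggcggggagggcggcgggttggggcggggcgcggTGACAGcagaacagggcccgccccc
Myh7b, chr2:155610993-155611242, plus strand: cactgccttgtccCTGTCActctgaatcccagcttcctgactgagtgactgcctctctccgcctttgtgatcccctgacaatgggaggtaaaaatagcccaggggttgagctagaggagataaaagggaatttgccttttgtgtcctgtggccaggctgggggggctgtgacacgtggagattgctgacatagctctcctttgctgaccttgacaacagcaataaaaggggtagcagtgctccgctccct
Cited1, chrX:102252182-102252431, minus strand: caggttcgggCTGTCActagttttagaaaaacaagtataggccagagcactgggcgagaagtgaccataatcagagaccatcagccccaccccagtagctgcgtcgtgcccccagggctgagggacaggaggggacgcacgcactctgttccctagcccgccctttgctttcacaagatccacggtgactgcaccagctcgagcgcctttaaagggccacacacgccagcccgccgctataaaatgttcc

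The hexamer begins 62 bases before the start in Nppa, 25 in Tmod1, 237 in Myh7b and 240 in Cited1. Cited1 has 3 windows, and the printed one is the only 1 of them with the hexamer before its start. Over whole windows of 300 bases, it was present in 68 of 363 windows of genes with a called difference between genotypes (18.7%). It was present in 16.8% of windows of all genes tested, in 18.8% of windows of genes at least 2-fold higher in dKO ventricles, and in 90 of 579 windows of genes at least 2-fold higher in dKO atria. The GATA motif AGATAA was present in 6.34%, 6.31%, 6.04% and 7.43% of windows of these 4 sets, in the same order. By gene over whole windows, the hexamer was present for 21.7% of genes with a called difference between genotypes. It was present for 19.6% of all genes tested, both shares being among genes that matched a window. The windows of Gja1, Myl3 and Hspb7 do not hold the hexamer before the start. A match describes letters and is no measurement of binding.

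Several other TALE genes differed little between dKO chambers. Meis3 was higher in atria, with 7.04, 7.88, 8.87 and 11.2 CPM in atria and 3.69, 4.62, 5.93 and 6.27 CPM in ventricles (log2 -0.67), as were Pknox2 (-0.61) and Tgif1 (-0.36), whose ranges overlap and whose call was lost without dKO embryo 2 (-0.30). Pbx3 (0.06, 95% interval -0.11 to 0.24), Pknox1 (0.10, -0.10 to 0.30), Pbx2 (-0.12, -0.25 to 0.01) and Tgif2 (-0.14, -0.32 to 0.03) were not called. Pbx2 was called after re-centring (-0.18), after quantile normalization (-0.17), by edgeR (-0.14) and without dKO embryo 3 (-0.15). Of these 7 genes, 0 had a called difference between genotypes.

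The 4 dKO embryos gave similar chamber differences. Across genes, which share the libraries, the differences of each embryo had r of 0.81 to 0.88 with the mean of the other 3. Of all genes tested, 664 (4.76%) had 1 embryo apart from the other 3, near the share of 1 in 20 that chance gives. For 7904 genes (56.7%) the 95% interval of the difference lay within 0.5 of 0 on the log2 scale. Genes at least 2-fold higher in dKO ventricles had a median level of 13.5 CPM and those higher in atria 8.86 CPM, against 21.4 CPM over all genes tested.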

How the data were processed

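Atria and ventricles of 4 dKO and 4 control mouse embryos were profiled by RNA sequencing, and 1 deposited table gives CPM for 16118 genes. The authors' processing named the tools cutadapt and RSEM 1.3.1 and the build GRCm38, per the submitters' processing notes, and how the deposited CPM were normalized and filtered is not given in the sources used here. Dividing by a step fixed for each library and subtracting 0.5 turned 100% of the values into whole reads, to within 0.001. Library columns summed to 753687 to 841274 CPM, and the recovered reads came to 7.88 to 23.0 megareads. In both genotypes every ventricular column summed to more than every atrial column, so the deposited scaling goes with chamber. Those reads served for depth, for edgeR and DESeq2 as alternatives and for thinning.

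The main test was limma 3.58.1 in R 4.3.3 with a mean-variance trend on log2(CPM + 1), for genes averaging 1 CPM or more, with all 16 libraries in 4 groups and embryo as a random block (consensus correlation 0.108). It was two-sided, with Benjamini-Hochberg adjustment over 13950 genes. The added 1 makes differences of genes at low CPM smaller than they would be without it. Chambers of an embryo are paired by their titles, and their deviations from group means correlated by 0.202 to 0.347 in dKO and 0.291 to 0.511 in control embryos. The protocol speaks of litters with 1 control and 1 dKO embryo each, which the title numbers do not show, so litter was not used as a term. Alternatives were other pseudocounts, filters and scalings, edgeR 4.0.16, DESeq2 1.42.0, other treatments of the block, equal depth, the shared-number embryos alone, and leaving out each embryo. The limma steps were also run on simulated data with few changed genes and no embryo effect. That run cannot check the embryo block, or a case with as many changed genes as were called here.

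Named genes were the 12 largest called differences each way with 4 of 4 embryos in 1 direction, no overlap, at least 5 CPM in the higher chamber and an ordinary symbol; Meis1, Meis2 and the TALE genes; up to 4 called members of each list in each direction by adjusted p; and the 8 largest differences between genotypes each way. Further list members, given mostly by their log2 difference, were picked after their values were seen. Some genes that the lists count are not reported by name here. The comparison and all lists were chosen with earlier results of these data known. GENCODE M21 matched 16096 gene IDs. In 36 of the 193 named genes exons overlap a second gene of the table, on the opposite strand in 34, and since strand use is not given, reads of such pairs cannot be told apart. Besides genes named for this in the text they include Nppa, Myl3, Myh7b, Tmod1, Ryr3, Mb, Pln, Hopx, Irx3, Kcnq1, Kcnj3, Gja5, Nr2f2 and Fabp3.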

Additional observations from a re-analysis of the deposited data

Results flagged for a closer look

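In 12 of 193 named genes 1 dKO embryo stood apart from the other 3 by Dixon's criterion, which chance gives in about 1 of 20 groups. The log2 difference of ventricle minus atrium in embryo 1 was 5.276 for Myl3, -4.418 for Slc17a7, 1.349 for Cckar, 1.098 for Hopx, 0.08961 for Meis2, 1.207 for Hk1 and -0.3717 for Cx3cr1. In embryo 2 it was -1.659 for Aldh1a2, 1.241 for Sdhd and 1.177 for Cyc1. In embryo 4 it was 0.3024 for Meis1 and 0.9382 for Wif1.

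The test of the difference between genotypes called 8 leading genes shifted towards the ventricle in dKO embryos, by 3.163 for Uts2b, 2.742 for Ap3b2, 2.124 for Dsc2, 2.121 for Cckar, 2.072 for Dpp6, 2.058 for Ryr3, 1.907 for Gsg1l and 1.817 for Nav3. Those of Uts2b, Cckar and Dpp6 were not called by edgeR or DESeq2, and that of Ap3b2 not by edgeR. It called 8 shifted towards the atrium, by -2.122 for Adra1d, -2.024 for Ces1d, -1.921 for Col2a1, -1.756 for Ssc5d, -1.43 for Spock2, -1.423 for Ankrd63, -1.379 for F13a1 and -1.377 for Plppr1. That of Ces1d, which has close paralogs, was not called by edgeR or DESeq2, and that of Ankrd63 was not called in the shared-number embryos.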

How the results depend on the processing

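Of 193 named genes, 186 were called in the dKO chamber comparison, and 167 of these kept their direction and their call under every alternative run. The number of dKO calls stayed within 1.5 times 6844 under every alternative, from 5686 in the shared-number embryos to 7220 without a filter. Its split by direction did not: 3699 and 3145 became 2867 and 3753 after re-centring. The difference between genotypes counted 368 genes, 307 by edgeR, 396 by DESeq2 and 226 in the shared-number embryos, which are fewer samples. Leaving out 1 embryo gave 238 (without dKO embryo 3) to 470 (without dKO embryo 1).

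On the pairing of chambers by embryo, 6515 genes were called without the block (3504 and 3011 by direction), 6647 with a fixed block (3578 and 3069) and 5718 with a block fitted to dKO embryos alone (3004 and 2714). The difference between genotypes counted 294 genes without the block and 350 with the fixed block. Among named genes the treatment of the block ended the calls of Dpp6, Frzb and Gja4 (dKO chamber difference, block in dKO embryos alone), Fabp3, Sbk3 and Smad7 (difference between genotypes, no block) and Myl4 and Sfrp5 (difference between genotypes, fixed block).

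Genes that changed sign were not called in the main analysis. In the shared-number embryos the dKO chamber difference was -0.076 for Cckar, -0.050 for Pbx3 and -0.015 for Pknox1. Leaving out 1 embryo gave -0.12 to 0.40 for Cckar, -0.022 to 0.10 for Pbx3 and -0.0010 to 0.20 for Pknox1. Meis1 in dKO ventricles ran from 94.4% to 102% of control when 1 embryo was left out. The cause of these changes was not tested. Low depth of the ventricle of dKO embryo 2 (7.88 megareads) limits genes near its floor of 0.312 CPM.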
